A study of Mus musculus with 16 samples.

Results

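Fatty acid uptake and oxidation was followed through 39 genes that were named by their known roles and found in the count matrix by Ensembl ID. All 39 were present among 55487 genes, and all 39 were among the 18275 genes that passed the filter on low counts and were tested. They were ordered by 8 steps, which were uptake (3 genes), activation (5), the carnitine shuttle (6), malonyl-CoA control (2), mitochondrial beta oxidation (13), electron transfer (3), thioesterases and uncoupling (4) and the peroxisome (3). The RNA came from the apex of the heart of male mice weighing 25 to 30 g, taken 4 weeks after surgery, with 1 mouse per library and 4 libraries in each of 4 groups. Ctrl sham and Ctrl TAC mice were wildtype. KO sham and KO TAC mice were labelled CARDINAL-KO, for a knockout of Cardinal (Gm12295, ENSMUSG00000085162), a cardiac long noncoding RNA, made with CRISPR/Cas9. The RNA of 1 KO TAC library went against that label, as given below. Transverse aortic constriction (TAC) raises the pressure against which the left ventricle pumps by tying the aorta to a smaller bore, and sham surgery leaves out the ligation. The age of the mice was not given in the sources used here.

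The working heart takes most of its energy from long-chain fatty acids. They enter the cell through membrane transporters, are bound by a cytosolic carrier, are joined to coenzyme A, cross the inner mitochondrial membrane as carnitine esters and are shortened by repeated cycles of dehydrogenation, hydration, dehydrogenation and thiolysis. Lower expression of these genes is a known feature of the pressure-loaded heart, where fuel use moves towards glucose. The study also examined fatty acid metabolism in these libraries, so the direction of the whole group is not independent evidence.

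The 39 genes lay on 17 chromosomes, and only 2 pairs lay within 100 kb of each other in GENCODE M21 (GRCm38). Hadha and Hadhb encode the alpha and beta subunits of the mitochondrial trifunctional protein, which carries out the last 3 reactions of the cycle on long chains. They lay head to head on chromosome 5, Hadha at 30118304 to 30155162 on the minus strand and Hadhb at 30155248 to 30184593 on the plus strand, so that 85 bases separated the 2 annotated starts. This shared stretch is shown because it lies upstream of both genes, whose RNA levels are compared below. It is printed on the plus strand of GRCm38.p6 from the RefSeq promoter table (chr5:30155163-30155247), had 69.4% G and C, and held neither of the motifs searched, so no letter is in capitals:

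Hadha-Hadhb: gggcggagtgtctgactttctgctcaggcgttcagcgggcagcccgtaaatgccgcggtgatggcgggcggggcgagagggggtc

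Promoter windows, from 250 bases before to 50 bases after each RefSeq start, were given for 33 of the 39 genes. Acaa2, Acot13, Cpt1b, Crat, Decr1 and Hsd17b4 had no entry. Each window was searched on both strands for the direct repeat of AGGTCA with 1 base between the copies, to which PPAR and RXR receptors bind, with at most 1 mismatch in all, and for AGGTCA right after TNA, to which estrogen-related receptors bind, with no mismatch. The direct repeat was found for 0 of the 33 genes and for 0.644% of all 27025 genes with a window. The estrogen-related receptor element was found for 1 of the 33 genes (3.03%) and for 1.43% of all genes. That gene was Acsl6, a long-chain acyl-CoA synthetase, and the element is shown in capitals because it was the only match among the 33 genes, on the strand opposite to the gene's (chr11:54303642-54303680, plus strand, GRCm38.p6):

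Acsl6: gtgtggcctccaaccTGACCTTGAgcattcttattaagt

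A match of letters is not a shown binding site, and a window without a match says only that these letters were not in it.

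Library totals ran from 53169437 to 79404714 counts, and each of the 39 genes had between 140 and 189766 counts in every library. Cardinal checked the labels. Its level was 3.24 to 3.86 CPM (counts scaled to a common library size by TMM, times 1e+06) in Ctrl sham, 0.297 to 0.553 CPM in KO sham and 2.69 to 8.02 CPM in Ctrl TAC. In KO TAC it was 0.371, 0.276, 0.368 and 4.55 CPM in libraries 1 to 4, so the library labelled KO TAC 4 was at the level of the Ctrl libraries and went against its label. The mouse numbers of the library labelled KO TAC 4 and of Ctrl TAC 2, 3 and 4 start with 25, and those of all other mice do not. Among genes of the heart, the 12 cardiomyocyte markers were high in every library (57625 to 79303 CPM in sum), and the 7 liver markers summed to 78.8 CPM in Ctrl TAC 2 and to 4.11 to 9.52 CPM in the other libraries. The numbers of the 39 genes called after TAC in KO, and between KO TAC and Ctrl TAC, are given with and without the library labelled KO TAC 4. Most other counts that use the KO TAC group are given only with it.

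Levels were compared between genes per kilobase of exon (CPM per kb). In Ctrl sham they ranged from 1.39 ± 0.16 CPM per kb (SD, n = 4) for Acsl3 to 2826 ± 163 for Fabp3, the heart's fatty acid binding protein, which carries fatty acids through the cytosol. Hadhb followed with 785 ± 64.7 CPM per kb, then Acadm with 557 ± 24.1, Acadl with 514 ± 39.2, Etfb with 513 ± 40.4 and Etfa with 494 ± 19.0. Acadl, Etfb and Etfa did not differ beyond their spread. The 10 genes with the lowest levels, all at or under 12.3 CPM per kb, were the 4 minor acyl-CoA synthetases Acsl3, Acsl4, Acsl5 and Acsl6, the acyl-CoA dehydrogenase family member Acad10, the peroxisomal genes Ehhadh and Pex11a, the thioesterase Acot1, the carnitine importer Slc22a5 and the carnitine palmitoyltransferase Cpt1a.

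**Figure D1:**
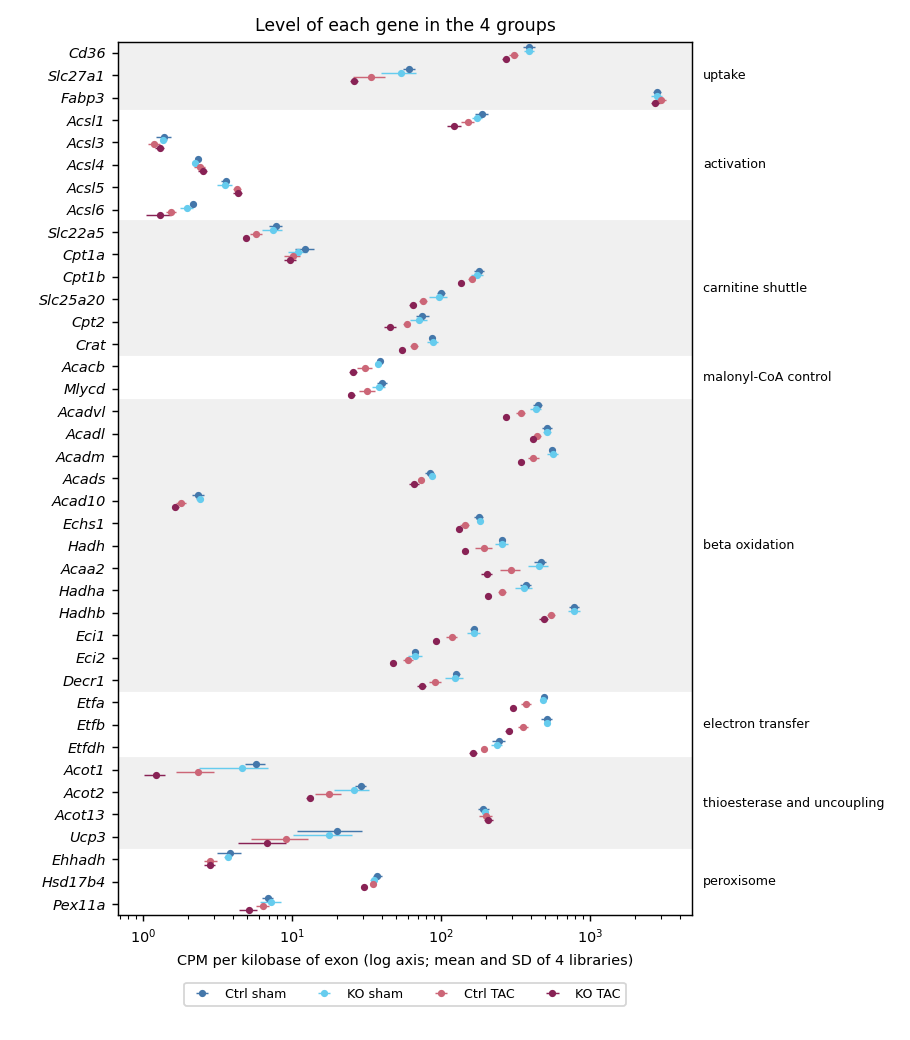
Level of each of the 39 genes in CPM per kilobase of exon on a log axis, by step, with the mean and SD of the 4 libraries in each of the 4 groups. The sham groups lie on each other for most genes, and both TAC groups lie to the left for most genes outside Fabp3, Acot13, Acsl4 and Acsl5.

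After TAC, most of the pathway was lower in both genotypes. In Ctrl, 28 of the 39 genes fell and 1 rose (adjusted p under 0.05, edgeR quasi-likelihood test), beside 20.0% of all genes tested, 9.60% lower and 10.4% higher. In KO, 33 of the 39 fell and 1 rose, beside 34.3% of all genes, 16.5% lower and 17.8% higher. The median log2 fold change of the 39 genes was -0.38 in Ctrl and -0.57 in KO, and that of all genes tested was 0.00 in both. The groups did not overlap, with all 4 TAC libraries below all 4 sham libraries, for 26 genes in Ctrl (9.97% of all genes) and for 33 in KO (16.6%). They were above without overlap for 1 gene in Ctrl (10.5% of all genes) and 1 in KO (18.0%). Without the library labelled KO TAC 4, 32 genes fell and 1 rose in KO, beside 31.0% of all genes called. Mouse numbers starting with 25 occurred only in TAC groups and those starting with 33 only in sham groups. The number series and surgery were thus partly confounded. With a term for numbers starting with 25, 24 genes fell in Ctrl and 33 in KO. Of all genes, 13.6% in Ctrl and 34.1% in KO were then called in either direction. With a term for numbers starting with 33, 32 fell in Ctrl and 34 in KO, beside 21.1% and 26.4% of all genes called.

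The 28 genes that fell in Ctrl also fell in KO, and Acsl5 rose in both. Cpt1b, Eci2, Ucp3, Hsd17b4 and Pex11a passed the test in KO and not in Ctrl. Fabp3, Acsl3, Acsl4, Cpt1a and Acot13 passed it in neither. In Ctrl, 4 of the calls were lost when single libraries were left out. Those of Acsl1, Acsl5, Acadl and Acads were lost without Ctrl sham 1, those of Acsl1 and Acsl5 also without Ctrl TAC 1, those of Acadl and Acads without Ctrl TAC 2, those of Acsl1 and Acads without Ctrl TAC 4, and that of Acsl5 without Ctrl sham 2 or Ctrl TAC 3. The summed level of the 39 genes was 16376 to 18840 CPM in Ctrl sham, 15704 to 19044 in KO sham, 13098 to 14829 in Ctrl TAC and 11021 to 12138 in KO TAC, so both TAC groups lay below both sham groups and KO TAC lay below Ctrl TAC without overlap. Within Ctrl sham, KO sham and Ctrl TAC, 1 library was highest for most of the genes. Ctrl sham 1 held the highest value of its group for 29 of the 39 genes, KO sham 4 for 33 and Ctrl TAC 3 for 24. In KO TAC no library led in this way, with 16, 10, 4 and 9 genes for libraries 1 to 4.

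**Figure D2:**
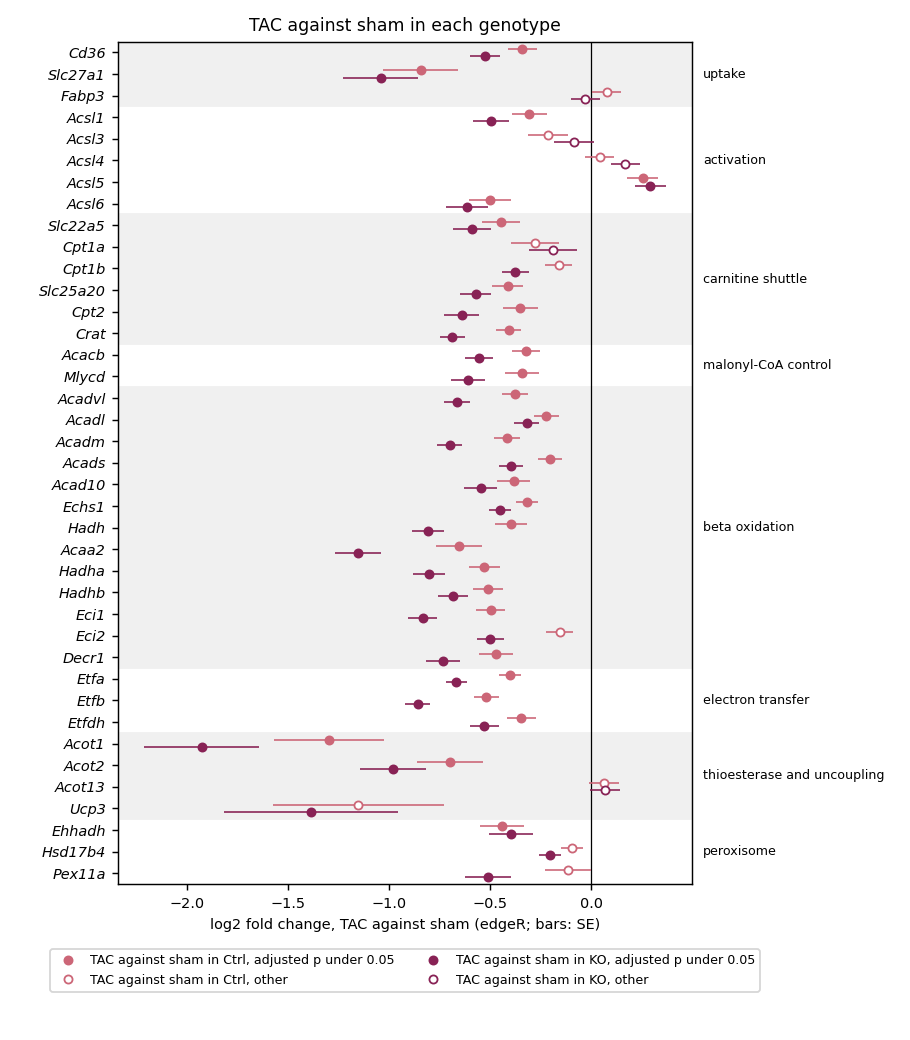
Log2 fold change of TAC against sham in Ctrl and in KO for each of the 39 genes, with the standard error from edgeR, and filled points where the adjusted p was under 0.05. Nearly all points lie left of 0, 28 genes are filled on the left in both genotypes, and the KO point lies further left for 27 of these 28.

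At uptake, the transporters Cd36 and Slc27a1 fell and the carrier Fabp3 did not pass the test. Slc27a6, a transport protein of the wider list given below, rose in both genotypes. Cd36, the main fatty acid translocase, was 1566, 1303, 1404 and 1275 CPM in the Ctrl sham libraries and 1134, 1049, 1181 and 1018 CPM in Ctrl TAC. It was 1326, 1313, 1344 and 1551 CPM in KO sham and 1025, 914, 923 and 982 CPM in KO TAC. All TAC libraries lay below all sham libraries, with log2 fold changes of -0.34 ± 0.07 (SE) in Ctrl (edgeR adjusted p = 0.0025) and -0.53 ± 0.07 in KO (adjusted p = 1.97e-05).

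Slc27a1, a fatty acid transport protein with acyl-CoA synthetase activity, changed most at this step. It was 189, 181, 171 and 152 CPM in Ctrl sham, 162, 139, 108 and 203 in KO sham, 65.3, 118, 112 and 91.2 in Ctrl TAC, and 76.9, 67.9, 74.9 and 77.6 in KO TAC. The KO sham libraries spread most, and Ctrl TAC 1 was as low as the KO TAC libraries. TAC left 55.7% of the sham level in Ctrl (log2 fold change -0.84 ± 0.19, edgeR adjusted p = 0.0053) and 48.5% in KO (-1.04 ± 0.19, adjusted p = 0.000614).

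Fabp3 did not pass the test. It was 2524, 2240, 2293 and 2248 CPM in Ctrl sham, 2291, 2169, 2196 and 2594 in KO sham, 2316, 2305, 2724 and 2466 in Ctrl TAC, and 2387, 2368, 2026 and 2288 in KO TAC. All 4 groups overlapped, and the log2 fold change of TAC against sham was 0.08 ± 0.07 in Ctrl and -0.03 ± 0.07 in KO (edgeR adjusted p = 0.512 and 0.801). It was the gene with the highest level per kilobase among the 39.

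At activation, where acyl-CoA synthetases join fatty acids to coenzyme A, the main isoform fell and a minor one rose. Acsl1 was 867, 750, 818 and 699 CPM in Ctrl sham, 717, 730, 660 and 796 in KO sham, 565, 644, 715 and 612 in Ctrl TAC, and 532, 451, 496 and 579 in KO TAC. The Ctrl groups overlapped through Ctrl sham 4 and Ctrl TAC 3, and the KO groups did not overlap. Its log2 fold change was -0.31 ± 0.09 in Ctrl (edgeR adjusted p = 0.0179) and -0.50 ± 0.09 in KO (adjusted p = 0.000236).

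Acsl6 fell most at this step, from 15.9, 17.1, 17.1 and 16.7 CPM in Ctrl sham to 12.1, 12.9, 11.5 and 10.8 in Ctrl TAC, and from 14.4, 17.3, 14.0 and 14.8 in KO sham to 12.6, 9.44, 8.28 and 9.17 in KO TAC. No TAC library reached a sham library of its genotype, and the log2 fold changes were -0.50 ± 0.10 and -0.61 ± 0.10 (edgeR adjusted p = 0.0021 and 0.000169). Acsl5, which is best known from intestine and liver, was 14.4, 14.4, 16.2 and 15.9 CPM in Ctrl sham, 13.9, 14.6, 17.5 and 14.1 in KO sham, 18.9, 17.3, 19.3 and 17.3 in Ctrl TAC, and 17.1, 19.2, 19.6 and 17.7 in KO TAC. It rose without overlap in Ctrl and with KO sham 3 inside the KO TAC range in KO, by log2 fold changes of 0.26 ± 0.08 and 0.29 ± 0.08 (edgeR adjusted p = 0.0239 and 0.0062).

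Acsl3 and Acsl4, synthetases that also serve lipid synthesis and polyunsaturated fatty acids, did not pass the test. Acsl3 was 5.33, 6.22, 4.75 and 5.65 CPM in Ctrl sham, 5.58, 5.42, 5.72 and 5.03 in KO sham, 4.38, 4.96, 5.26 and 4.32 in Ctrl TAC, and 5.12, 5.42, 5.31 and 4.67 in KO TAC, with all groups overlapping. Acsl4 was 12.8, 12.2, 12.9 and 11.9 CPM in Ctrl sham, 12.2, 11.3, 12.6 and 11.5 in KO sham, 13.6, 11.4, 13.1 and 13.1 in Ctrl TAC, and 12.7, 12.7, 14.8 and 13.5 in KO TAC. All KO TAC libraries lay above all KO sham libraries for Acsl4, with a log2 fold change of 0.17 ± 0.07 (edgeR adjusted p = 0.0724).

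Acsl1 held 95.2% ± 0.491 of the summed CPM per kb of the 5 Acsl genes in Ctrl sham, 95.0% ± 0.606 in KO sham, 94.1% ± 0.562 in Ctrl TAC and 92.8% ± 0.865 in KO TAC (SD, n = 4). The share was lower after TAC by 1.04 percentage points in Ctrl and by 2.16 in KO, each with p = 0.0286 in the exact two-sided permutation test, which is the smallest p that 4 against 4 libraries allow, and with 0.0571 after Benjamini-Hochberg adjustment over 4 comparisons. Between KO TAC and Ctrl TAC the share differed by -1.29 points (exact permutation p = 0.0571, adjusted 0.0762).

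In the carnitine shuttle, 4 of 6 genes fell in Ctrl and 5 in KO. Cpt1b, the muscle carnitine palmitoyltransferase that makes acylcarnitine on the outer membrane, was the highest of the step per kilobase. It was 563, 500, 549 and 476 CPM in Ctrl sham, 514, 501, 452 and 570 in KO sham, 437, 487, 488 and 456 in Ctrl TAC, and 398, 387, 378 and 407 in KO TAC. The KO TAC libraries lay below all 12 others, while Ctrl TAC overlapped Ctrl sham. The log2 fold change was -0.16 ± 0.07 in Ctrl (edgeR adjusted p = 0.107) and -0.37 ± 0.07 in KO (adjusted p = 0.000287). Cpt1b shared 81.4% of its annotated exon bases with the read-through model Gm44502 on the same strand, so its counts depend on how shared reads were assigned.

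Cpt1a, the isoform of liver and of the fetal heart, was 53.6, 63.4, 51.5 and 44.2 CPM in Ctrl sham, 46.6, 46.7, 40.4 and 57.4 in KO sham, 36.9, 42.3, 47.3 and 48.7 in Ctrl TAC, and 46.9, 37.5, 42.4 and 40.9 in KO TAC. All groups overlapped and no comparison passed the test (edgeR adjusted p = 0.113 in Ctrl and 0.244 in KO for TAC). Its share of the summed CPM per kb of Cpt1a and Cpt1b was 6.40% ± 0.952 in Ctrl sham, 5.90% ± 0.299 in KO sham, 5.91% ± 0.607 in Ctrl TAC and 6.68% ± 0.567 in KO TAC. None of the 4 differences passed the exact permutation test, either before adjustment (p from 0.0857 to 0.514) or after it (0.229 to 0.514). With 4 against 4 libraries the adjusted test has little room to pass, as for the Acsl1 share above.

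Crat, which moves acetyl groups between carnitine and coenzyme A in the mitochondrial matrix, fell most in the shuttle in KO. It was 428, 396, 392 and 380 CPM in Ctrl sham, 380, 400, 378 and 446 in KO sham, 293, 315, 317 and 277 in Ctrl TAC, and 256, 244, 236 and 260 in KO TAC. The TAC groups lay below the sham groups, and KO TAC lay below Ctrl TAC, without overlap. TAC left 75.3% of the sham level in Ctrl (log2 fold change -0.41 ± 0.06, edgeR adjusted p = 0.000113) and 62.1% in KO (-0.69 ± 0.06, adjusted p = 1.55e-07).

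Cpt2, which returns acyl groups to coenzyme A inside the mitochondrion, was 203, 165, 182 and 165 CPM in Ctrl sham, 164, 164, 150 and 200 in KO sham, 134, 142, 150 and 135 in Ctrl TAC, and 118, 113, 94.3 and 109 in KO TAC. KO TAC was again the lowest group without overlap. The inner membrane carrier Slc25a20 and the plasma membrane carnitine importer Slc22a5 fell in both genotypes, with log2 fold changes of -0.41 and -0.57 and of -0.45 and -0.59 in Ctrl and KO.

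Of the 2 genes that set malonyl-CoA, the inhibitor of the first shuttle step, both fell in both genotypes. Mlycd, which breaks malonyl-CoA down, was 88.2, 94.1, 85.4 and 77.3 CPM in Ctrl sham, 80.7, 76.4, 75.5 and 93.5 in KO sham, 59.0, 76.5, 73.5 and 63.2 in Ctrl TAC, and 56.4, 49.7, 52.0 and 55.5 in KO TAC. KO TAC was lowest without overlap, and TAC left 78.9% of the sham level in Ctrl and 65.5% in KO (log2 fold changes -0.34 ± 0.09 and -0.61 ± 0.09, edgeR adjusted p = 0.0082 and 2.57e-05). Acacb, which makes malonyl-CoA at the outer membrane, had group ranges of 328 to 350 CPM in Ctrl sham, 310 to 345 in KO sham, 250 to 318 in Ctrl TAC and 207 to 243 in KO TAC. The enzyme that makes malonyl-CoA and the enzyme that removes it were thus both lower, by log2 fold changes of -0.32 and -0.34 in Ctrl and of -0.56 and -0.61 in KO.

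Mitochondrial beta oxidation held the largest number of changed genes, with 12 of 13 lower in Ctrl and 13 of 13 in KO. The step median was -0.40 in Ctrl and -0.68 in KO on the log2 scale. Acaa2, a thiolase of the last reaction, changed most. It was 798, 696, 682 and 651 CPM in Ctrl sham, 621, 680, 607 and 833 in KO sham, 368, 500, 514 and 413 in Ctrl TAC, and 309, 321, 271 and 330 in KO TAC. No group pair overlapped other than the sham groups, and TAC left 63.5% of the sham level in Ctrl (log2 fold change -0.66 ± 0.11, edgeR adjusted p = 0.000621) and 44.9% in KO (-1.16 ± 0.11, adjusted p = 1.11e-06).

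Hadhb had the highest level of the step. It was 1833, 1586, 1552 and 1559 CPM in Ctrl sham, 1561, 1609, 1508 and 1863 in KO sham, 1137, 1090, 1249 and 1105 in Ctrl TAC, and 1073, 1048, 909 and 1045 in KO TAC. Its partner Hadha was 1677, 1443, 1470 and 1382 CPM in Ctrl sham, 1405, 1425, 1281 and 1718 in KO sham, 979, 1072, 1100 and 991 in Ctrl TAC, and 866, 840, 795 and 841 in KO TAC. Ctrl sham 1 and Ctrl TAC 3, and KO sham 4 and KO TAC 1, held the highest values of their groups for both subunits. The 2 head-to-head genes fell in Ctrl by 0.53 and 0.51 on the log2 scale for Hadha and Hadhb, and by 0.80 and 0.68 in KO. Whether these changes of the pair differ was not tested.

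The acyl-CoA dehydrogenases, which start each cycle at different chain lengths, all fell. Acadvl, for very long chains, was 1064, 916, 947 and 934 CPM in Ctrl sham, 936, 919, 867 and 1055 in KO sham, 735, 807, 752 and 675 in Ctrl TAC, and 590, 605, 590 and 596 in KO TAC. Acadm, for medium chains, was 1208, 1146, 1094 and 1117 CPM in Ctrl sham, 1082, 1178, 1084 and 1281 in KO sham, 793, 894, 940 and 793 in Ctrl TAC, and 716, 724, 696 and 709 in KO TAC. For both, every TAC library lay below every sham library and every KO TAC library below every Ctrl TAC library. Acadvl shared 42.9% of its exon bases with Dvl2 on the other strand, whose mean count was 671 against 51229 for Acadvl.

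Acadl, for long chains, Acads, for short chains, and Acad10 fell less or from lower levels, with log2 fold changes in Ctrl and KO of -0.22 and -0.32, of -0.20 and -0.40, and of -0.38 and -0.55. Their KO TAC and Ctrl TAC libraries overlapped. The short-chain hydratase Echs1 had -0.32 in Ctrl and -0.45 in KO.

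Hadh, the short-chain hydroxyacyl-CoA dehydrogenase, was 484, 459, 445 and 457 CPM in Ctrl sham, 426, 479, 412 and 512 in KO sham, 308, 389, 388 and 314 in Ctrl TAC, and 268, 264, 247 and 265 in KO TAC. Ctrl TAC split into Ctrl TAC 1 and 4 near 310 CPM and Ctrl TAC 2 and 3 near 389 CPM, and the KO TAC libraries lay below both. TAC left 75.9% of the sham level in Ctrl and 57.1% in KO (log2 fold changes -0.40 ± 0.08 and -0.81 ± 0.08, edgeR adjusted p = 0.0015 and 4.67e-07).

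Unsaturated chains need the enoyl-CoA isomerases and the dienoyl-CoA reductase. Eci1 was 233, 212, 205 and 217 CPM in Ctrl sham, 199, 216, 203 and 246 in KO sham, 147, 165, 164 and 138 in Ctrl TAC, and 124, 127, 114 and 120 in KO TAC. Eci2 was 124, 118, 115 and 112 CPM in Ctrl sham, 111, 114, 108 and 136 in KO sham, 96.2, 109, 113 and 101 in Ctrl TAC, and 82.2, 85.4, 81.2 and 83.7 in KO TAC. KO TAC was the lowest group for both without overlap, and for Eci2 the Ctrl TAC and Ctrl sham libraries overlapped (log2 fold change -0.16 ± 0.07, edgeR adjusted p = 0.116, against -0.50 ± 0.07, adjusted p = 1.59e-05, in KO). Decr1 fell by 0.47 in Ctrl and 0.74 in KO on the log2 scale.

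Electron transfer flavoprotein hands the electrons of the first reaction to the respiratory chain, and all 3 of its genes fell in both genotypes. Etfb, the beta subunit, was 501, 442, 418 and 471 CPM in Ctrl sham, 459, 449, 455 and 485 in KO sham, 330, 331, 332 and 284 in Ctrl TAC, and 254, 265, 237 and 263 in KO TAC. Etfa, the alpha subunit, was 717, 669, 661 and 702 CPM in Ctrl sham, 656, 692, 651 and 706 in KO sham, 513, 558, 540 and 472 in Ctrl TAC, and 431, 442, 419 and 412 in KO TAC. Both subunits stood in the order sham, Ctrl TAC, KO TAC with no overlap between the last 2, and their log2 fold changes after TAC were -0.52 ± 0.06 and -0.40 ± 0.05 in Ctrl and -0.86 ± 0.06 and -0.67 ± 0.05 in KO (edgeR adjusted p from 2.16e-08 to 3.92e-05). Etfdh, the oxidoreductase that receives the electrons, had -0.35 in Ctrl and -0.53 in KO. Etfb shared 53.0% of its exon bases with Gm45233 on the same strand.

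Thioesterases release free fatty acid from coenzyme A, and Ucp3 is a mitochondrial uncoupling protein. Of these 4 genes, 2 fell in Ctrl and 3 in KO, and Acot1 had the lowest log2 fold change of the 39 genes in both. Acot1, a cytosolic thioesterase, was 14.7, 14.5, 12.5 and 10.5 CPM in Ctrl sham, 8.50, 8.17, 7.39 and 18.3 in KO sham, 4.14, 5.78, 7.24 and 4.02 in Ctrl TAC, and 2.93, 2.27, 2.58 and 3.29 in KO TAC. KO sham 4 stood far above the other KO sham libraries, and KO TAC was the lowest group without overlap. TAC left 40.6% of the sham level in Ctrl (log2 fold change -1.30 ± 0.27, edgeR adjusted p = 0.0037) and 26.3% in KO (-1.93 ± 0.28, adjusted p = 0.000112). Acot1 and its mitochondrial relative Acot2 are near-identical copies 15616 bases apart on chromosome 12, so reads may be split between them, and Acot2 fell by 0.70 in Ctrl and 0.98 in KO on the log2 scale.

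Acot13 did not pass the test after TAC in either genotype. It was 153, 131, 128 and 145 CPM in Ctrl sham, 148, 140, 150 and 136 in KO sham, 158, 125, 153 and 145 in Ctrl TAC, and 154, 162, 138 and 148 in KO TAC, with all groups overlapping (edgeR adjusted p = 0.596 in Ctrl and 0.517 in KO). Ucp3 varied most between libraries of 1 group, from 23.5 to 75.8 CPM in Ctrl sham, 26.1 to 69.4 in KO sham, 11.8 to 33.6 in Ctrl TAC and 12.8 to 25.4 in KO TAC. It fell by 1.39 ± 0.43 on the log2 scale in KO (edgeR adjusted p = 0.0243) and had -1.15 ± 0.42 in Ctrl (adjusted p = 0.0776). Its call in KO was lost without KO sham 4, KO TAC 2, KO TAC 3 or the library labelled KO TAC 4.

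Of the 3 peroxisomal genes, 1 fell in Ctrl and 3 in KO. Hsd17b4, the bifunctional enzyme of peroxisomal beta oxidation, was 107, 94.5, 107 and 94.3 CPM in Ctrl sham, 97.2, 94.7, 88.7 and 99.3 in KO sham, 90.7, 100, 95.9 and 89.9 in Ctrl TAC, and 84.3, 82.7, 81.2 and 81.6 in KO TAC. The Ctrl groups overlapped, the KO groups did not, and the log2 fold change was -0.10 ± 0.05 in Ctrl (edgeR adjusted p = 0.246) and -0.20 ± 0.05 in KO (adjusted p = 0.0070). Pex11a, which promotes peroxisome division, was 17.3, 14.8, 15.6 and 14.3 CPM in Ctrl sham, 15.7, 15.4, 14.0 and 20.3 in KO sham, 12.3, 15.5, 15.2 and 14.3 in Ctrl TAC, and 12.5, 11.2, 9.39 and 12.8 in KO TAC. All KO TAC libraries lay below all KO sham libraries (-0.51 ± 0.11, edgeR adjusted p = 0.0021), whereas Ctrl TAC overlapped Ctrl sham (-0.11 ± 0.11, adjusted p = 0.542). Ehhadh, the other bifunctional enzyme, fell by 0.44 in Ctrl and 0.40 in KO on the log2 scale.

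In sham hearts, loss of Cardinal came with no detected change of the pathway. None of the 39 genes passed the test between KO sham and Ctrl sham (edgeR, 0 at an unadjusted p under 0.05 and 0 with DESeq2), beside 0.00% of all genes tested, with 479 of these at an unadjusted p under 0.05. The median log2 fold change was -0.04, the single genes ran from -0.30 (Acot1) to 0.08 (Pex11a), and the groups overlapped for all 39 genes. Of all genes, 0.837% were lower and 0.941% higher without overlap. As no gene was called, Cardinal itself was not called either, although its KO sham libraries lay below its Ctrl sham libraries without overlap. A lack of calls between the sham groups thus does not show a lack of change.

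After TAC, 13 of the 39 genes were lower in KO than in Ctrl and 0 higher (edgeR adjusted p under 0.05), and the count was 0 without Ctrl TAC 2. Of all genes tested, 2.68% were called, 1.32% lower and 1.36% higher. The 13 were Cpt2 and Crat of the shuttle, Acacb and Mlycd, 7 genes of beta oxidation (Acadvl, Acadm, Hadh, Acaa2, Hadha, Eci1 and Eci2), and Etfa and Etfb. The median log2 fold change of the 39 genes was -0.27, against 0.00 for all genes, and 35 of the 39 had a negative value. All 4 KO TAC libraries lay below all 4 Ctrl TAC libraries for 21 genes, beside 4.99% of all genes, and above them for 0, beside 5.55%.

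The sizes were moderate. Acaa2 in KO TAC was at 68.5% of its Ctrl TAC level (log2 fold change -0.54 ± 0.11, edgeR adjusted p = 0.021), Hadh at 74.6% (-0.42 ± 0.08, adjusted p = 0.0141) and Cpt2 at 77.6% (-0.37 ± 0.09, adjusted p = 0.0364). Mlycd, Eci1, Eci2, Etfb, Acadvl, Hadha, Etfa, Crat, Acadm and Acacb were between 78.5% and 83.2%, with adjusted p from 0.0131 to 0.0422. The 8 genes without overlap that missed the threshold were Cpt1b, Slc25a20, Hadhb, Decr1, Etfdh, Acot1, Acot2 and Hsd17b4. Acot1 had the lowest value of the 39 (-0.93 ± 0.29, adjusted p = 0.095). No gene of uptake, activation, thioesterases and uncoupling, or the peroxisome passed the test.

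**Figure D3:**
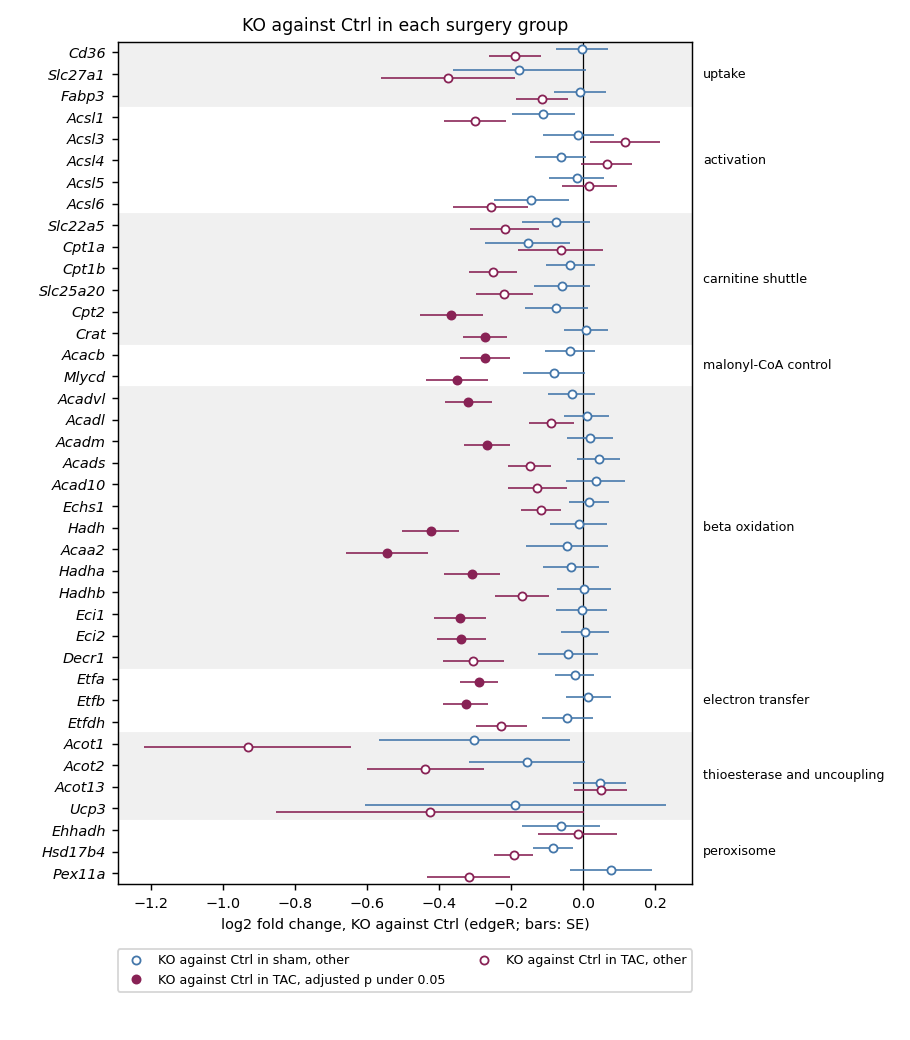
Log2 fold change of KO against Ctrl in sham and in TAC for each of the 39 genes, with the standard error from edgeR, and filled points where the adjusted p was under 0.05. The sham points lie around 0 and none is filled, and 13 TAC points are filled, all left of 0, in the shuttle, malonyl-CoA control, beta oxidation and electron transfer.

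**Figure D4:**
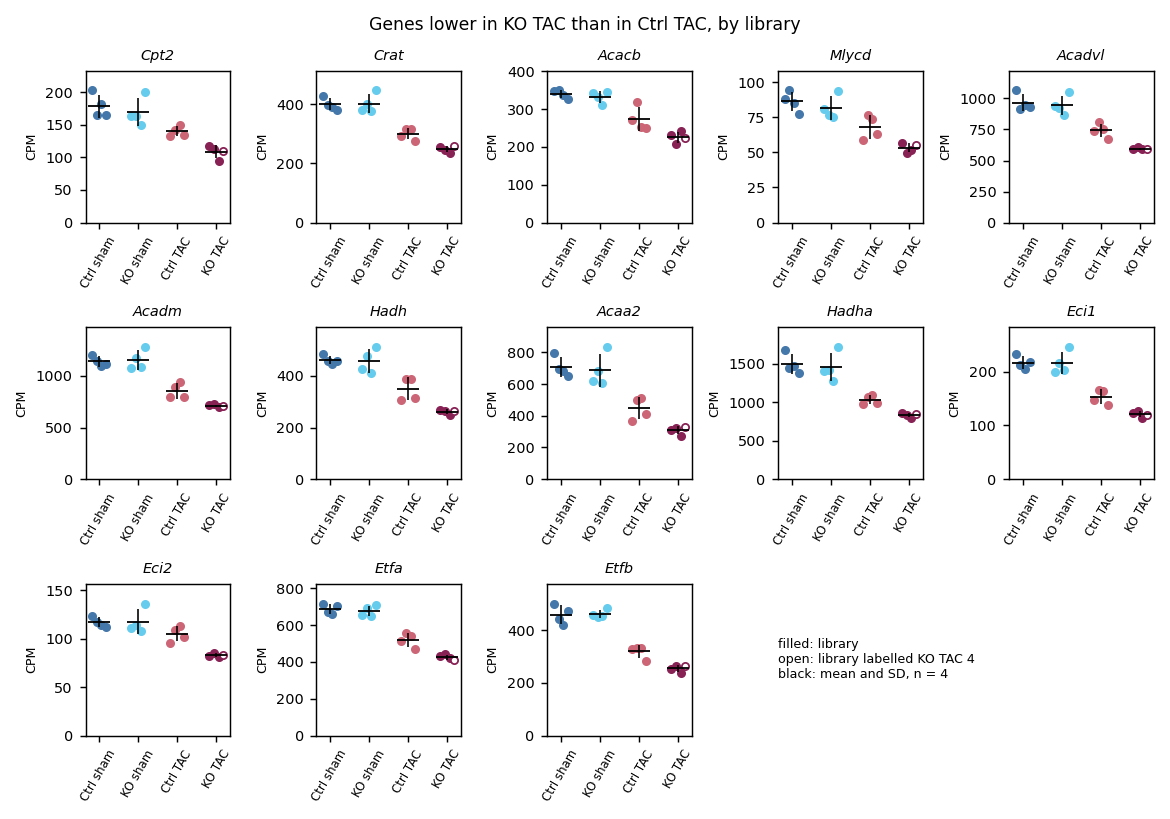
CPM in each of the 16 libraries for the 13 genes lower in KO TAC than in Ctrl TAC, with the mean and SD of each group in black and the library labelled KO TAC 4 as an open point. The 4 KO TAC libraries lie below the 4 Ctrl TAC libraries for each gene, and the open point lies close to the other KO TAC libraries.

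These calls depended on single libraries. Without the library labelled KO TAC 4, 9 genes were called, which were 8 of the 13 and Acsl1. Without Ctrl TAC 2 the count was 0, without KO TAC 3 it was 1, without Ctrl TAC 3 it was 4, without KO TAC 2 it was 6 and without KO sham 2 it was 8. With a term for mouse numbers starting with 25 it was 0, and the 13 genes then had log2 fold changes of -0.41 to -0.23 with adjusted p from 0.0862 to 0.245. The shares of all genes called in these fits are not given here. In TAC, 3 of the 4 mice labelled Ctrl carried such numbers, and of the 4 labelled KO the 1 that did was the mouse of the library labelled KO TAC 4, whose Cardinal level was that of the Ctrl libraries. The 3 KO TAC libraries low in Cardinal thus all came from outside the series, while 3 of the 4 Ctrl TAC libraries came from within it, so the series and the genotype were largely confounded. Within that series the library labelled KO TAC 4 was below the mean of Ctrl TAC 2, 3 and 4 for 37 of the 39 genes, with a median log2 difference of -0.23. Among the other mice, the mean of KO TAC 1, 2 and 3 was below Ctrl TAC 1 for 34 genes, with a median of -0.17. Each of these comparisons has 1 library on one side and no test, so neither can show a difference by genotype. The first is also not a comparison by Cardinal level. The direction of the median was the same under every setting tried, from -0.30 to -0.20.

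**Figure D5:**
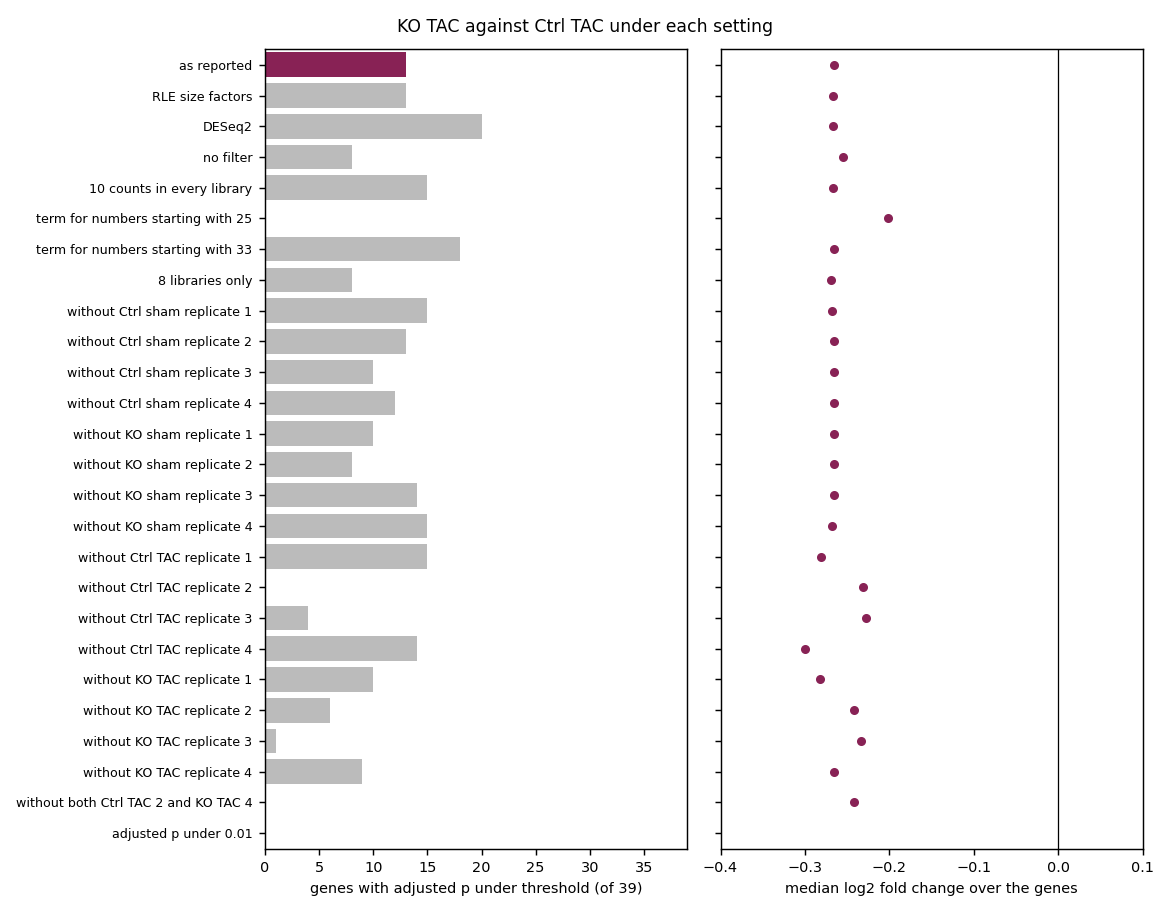
Number of the 39 genes with an adjusted p under the threshold between KO TAC and Ctrl TAC (left) and their median log2 fold change (right) under each processing setting and with each library left out. The count runs from 0 to 20 while the median stays between -0.30 and -0.20.

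The response to TAC was larger in KO by value, and the difference itself did not pass the test. Of the 28 genes that fell in both genotypes, 27 had the lower log2 fold change in KO. The genotype by surgery interaction was negative for 33 of the 39 genes, with a median of -0.20, and called for 0 of them by edgeR (17 at an unadjusted p under 0.05) and for 1 by DESeq2, Etfb (-0.34, DESeq2 adjusted p = 0.0398, edgeR adjusted p = 0.200). Of all genes, edgeR called 0.0109%, 0.0109% lower and 0.00% higher, and 2024 of 18275 had an unadjusted p under 0.05. Hadh (-0.41 ± 0.11), Eci2 (-0.34 ± 0.09) and Etfa (-0.27 ± 0.08) followed Etfb by p.

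A wider list of 53 other genes of fatty acid oxidation, of which 51 were tested, moved less evenly. After TAC, 5 rose and 14 fell in Ctrl, and 5 rose and 24 fell in KO, with medians of -0.11 and -0.18 on the log2 scale. Of all genes tested, 10.4% rose and 9.60% fell in Ctrl, and 17.8% rose and 16.5% fell in KO. Ech1, the dienoyl-CoA isomerase of mitochondria and peroxisomes, fell most clearly, from mean levels of 956 to 548 CPM in Ctrl (log2 fold change -0.80 ± 0.10, edgeR adjusted p = 1.73e-05) and from 972 to 426 CPM in KO (-1.19 ± 0.10, adjusted p = 8.99e-08). The acetyl-CoA synthetase Acss1 and the dehydrogenase family member Acad12 fell in both genotypes. The same 5 genes rose in both genotypes and are named after their values were seen. They were Slc27a6, a fatty acid transport protein of the heart (log2 fold change 2.13 in Ctrl and 1.67 in KO), Cpt1c, the neuronal carnitine palmitoyltransferase isoform (0.40 and 0.72), the thioesterase Acot9 (0.27 and 0.49), and Prkab2 and Prkag2, regulatory subunits of the AMP-activated kinase (0.41 and 0.72, and 0.29 and 0.44). Between KO TAC and Ctrl TAC, 5 of the 51 were lower and 0 higher, beside 1.32% and 1.36% of all genes. The 5 were Acot7, Acss1, Acad12, Acsm5 and Hsd17b10, with log2 fold changes from -0.83 to -0.24.

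Cell type markers also differed between the groups, and their part in the results was not tested. The summed level of the 12 cardiomyocyte markers was 70091 to 79303 CPM in Ctrl sham, 71927 to 77672 in KO sham, 64988 to 70142 in Ctrl TAC and 57625 to 60076 in KO TAC. The markers did not all move one way. After TAC, 2 of the 12 rose and 5 fell in Ctrl (median log2 fold change -0.08), and 1 rose and 7 fell in KO (-0.27). Between KO TAC and Ctrl TAC, 2 of the 12 passed the test, Myh6 (-0.39) and Ryr2 (-0.34), all 12 were lower by value, and their median log2 fold change was -0.15, against -0.27 for the 39 genes of the pathway. Fibroblast markers went the other way, from 640 to 773 CPM in Ctrl sham and 675 to 717 in KO sham to 1203 to 1699 in Ctrl TAC and 1956 to 2127 in KO TAC, with 6 of 10 higher after TAC in Ctrl, 9 of 10 in KO, and 2 of 10 higher in KO TAC than in Ctrl TAC. Macrophage markers rose for 5 of 9 genes in Ctrl and 8 of 9 in KO, and 1 of 9 endothelial markers rose, in KO. Between KO TAC and Ctrl TAC, 1 of 9 macrophage markers passed the test and was lower (-0.61), while 8 were higher by value. Of all genes tested, 9.60% fell and 10.4% rose after TAC in Ctrl, and 16.5% fell and 17.8% rose in KO. Between KO TAC and Ctrl TAC, 1.32% of all genes were lower and 1.36% higher. In bulk tissue, fewer cells of a type and less RNA per cell cannot be told apart.

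Set against the cardiomyocyte markers, a ratio chosen after the values were seen, the 39 genes summed to 23.3 ± 0.575 CPM per 100 CPM of markers in Ctrl sham, 23.0 ± 2.27 in KO sham, 20.3 ± 1.05 in Ctrl TAC and 20.0 ± 1.13 in KO TAC (SD, n = 4). The sham and TAC ranges did not overlap in Ctrl (22.7 to 23.8 and 19.4 to 21.8), nor did those in KO (21.1 to 26.2 and 18.3 to 20.9). Those of Ctrl TAC and KO TAC overlapped. The markers themselves differed between the groups, as given above, so this ratio is not a level per cardiomyocyte. On the mean log2 scale the genes lay below the markers by 5.13 ± 0.0791 in Ctrl TAC and by 5.20 ± 0.0724 in KO TAC, again with overlap. Mitochondrially encoded RNA also moved, with 26.8 to 28.8% of counts in sham and 21.9 to 27.0% in TAC libraries. Leaving it out, the 39 genes took 2.16 to 2.39% of counts in Ctrl sham, 2.08 to 2.49% in KO sham, 1.79 to 1.99% in Ctrl TAC and 1.55 to 1.69% in KO TAC, so the order of the groups was as before.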

How the data were processed

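The deposited values were raw counts, 1 column for each of 16 mice and 1 row per Ensembl ID, as the authors counted them and with no scaling. Libraries were poly(A)-selected and read as paired 150-base reads, and the submitters' processing notes name cutadapt 2.3, FastQC, HISAT2 2.1.0, edgeR 3.26.1 and GRCm38. The counting program, annotation and strand setting are not given in the sources used here. Columns were matched to mice by the numbers in the titles, and replicates were numbered in accession order. Gene names, positions and exon lengths (protein-coding transcripts of the basic set) came from GENCODE M21, which held 99.5% of the IDs. Counts were filtered with filterByExpr, TMM-scaled and fitted in edgeR 4.0.16 (R 4.3.3, quasi-likelihood, robust) with 1 mean for each of 4 groups over all 16 libraries, 5 contrasts and Benjamini-Hochberg adjustment over 18275 genes, and called at an adjusted p under 0.05. SE was the log2 fold change over the root of F. P-values measure the spread between mice. The code was tested on simulated data. Isoform shares were compared by exact permutation over 70 relabellings (scipy 1.17.1). Alternatives were DESeq2 1.42.0, RLE factors, other filters, a stricter threshold, terms for mouse number series, 8-library fits and leaving out libraries. All 39 genes are given. Values in every library are given, per step, for the gene highest per kb in Ctrl sham and those that fell and rose most after TAC in KO, for up to 12 genes called between KO and Ctrl by smallest p, and for Cpt1a and the Acsl genes. Cd36 was added after its values were seen. The genes and lists were chosen with earlier results of these data known.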

Additional observations from a re-analysis of the deposited data

Results flagged for a closer look

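For 9 of 164 sets of 4 libraries examined (the 39 genes and both isoform shares in 4 groups), 1 library stood apart from the other 3 by Dixon's test at the 95% level, and chance flags about 1 set in 20. KO sham 4 was above the rest of its group for Cd36 (1551 CPM against 1313 to 1344) and Acot1 (18.3 against 7.39 to 8.50), and Ctrl sham 1 for Acadl (1096 against 939 to 964) and Hadhb (1833 against 1552 to 1586). Slc22a5 was low in Ctrl TAC 1 (15.2 against 18.3 to 18.6 CPM), Etfb in Ctrl TAC 4 (284 against 330 to 332) and Hadh in KO TAC 3 (247 against 264 to 268). Ucp3 was high in KO TAC 1 (25.4 against 12.8 to 14.3 CPM). The Cpt1a share of Cpt1a and Cpt1b was 7.83% in Ctrl sham 2 against 5.87 to 6.00% in the other Ctrl sham libraries.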

How the results depend on the processing

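The number of genes lower in KO TAC than in Ctrl TAC was 13 and moved with most settings. It was 20 with DESeq2, 8 with no filter, 8 with the 8 libraries of the comparison alone, and 0 with a term for mouse numbers starting with 25, without both Ctrl TAC 2 and the library labelled KO TAC 4, and at an adjusted p under 0.01. Leaving out single libraries gave 0 to 15. The shares of all genes called under these settings are not given here. A change in these counts thus cannot be told apart from a change over all genes. The cause was not tested. The interaction count was 0 and became 1 with DESeq2. With a term for mouse numbers starting with 33 (Ctrl sham 4 and KO sham 1, 2 and 3) the median log2 fold change of TAC in KO moved from -0.57 to -0.68 and that of the interaction from -0.20 to -0.29. The counts after TAC stayed within 25 to 33 genes in Ctrl and 33 to 35 in KO, the count between the sham groups stayed at 0. No paired analysis was possible because the labels give mouse numbers and no replicate numbers shared between groups. The median between the sham groups was -0.04, and turned to 0.01 without Ctrl sham 1 and to 0.04 with the term for numbers starting with 33. Each of the 39 genes had at least 140 counts in every library.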

Other observations

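Of 20 regulators of the pathway, 0 rose and 4 fell after TAC in Ctrl, and 0 rose and 11 fell in KO. Their medians were -0.11 and -0.26 on the log2 scale. Of all genes tested, 20.0% were called after TAC in Ctrl (9.60% lower) and 34.3% in KO (16.5% lower). The interaction was called for 0 of the 20 by edgeR. At an unadjusted p under 0.05 there were 7 of them, beside 2024 of all 18275 genes. Rxrg, a retinoid X receptor, was at mean levels of 38.7 CPM in Ctrl sham, 40.7 in KO sham, 33.3 in Ctrl TAC and 27.5 in KO TAC, with a log2 fold change after TAC of -0.57 ± 0.07 in KO (edgeR adjusted p = 3.01e-06), and was the 1 regulator lower in KO TAC than in Ctrl TAC (-0.28 ± 0.07, adjusted p = 0.0335). In that comparison, 1.32% of all genes tested were lower and 1.36% higher. Klf15, a transcription factor of cardiac lipid metabolism, fell after TAC by 0.55 in Ctrl and 1.10 in KO on the log2 scale. Esrra, an estrogen-related receptor, fell by 0.34 in KO (adjusted p = 9.12e-05) and Rxra by 0.49.

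Ppara, the receptor that drives many genes of fatty acid oxidation, was 29.0 to 47.2 CPM in Ctrl sham, 34.6 to 47.7 in KO sham, 24.4 to 38.5 in Ctrl TAC and 23.5 to 33.7 in KO TAC. Ppargc1a, its coactivator, was 89.0 to 154 CPM in Ctrl sham, 122 to 145 in KO sham, 78.0 to 133 in Ctrl TAC and 65.3 to 121 in KO TAC. Both overlapped between Ctrl sham and Ctrl TAC, and both passed the test after TAC in KO (log2 fold changes -0.53 ± 0.17 and -0.62 ± 0.22, edgeR adjusted p = 0.0292 and 0.0464). In the TAC groups, Ctrl TAC 1 was the lowest Ctrl library and the library labelled KO TAC 4 the highest KO library for both genes.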
